A study of Macaca mulatta with 30 samples.

Results

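Nuclear genes for the subunits of oxidative phosphorylation were followed in the lung and hippocampus of preterm rhesus macaque fetuses after maternal corticosteroids. Members were chosen by symbol alone, namely every gene whose rhesus Ensembl symbol begins with NDUFA, NDUFB, NDUFC, NDUFS, NDUFV, UQCR, COX4, COX5, COX6, COX7, COX8, ATP5F, ATP5M or ATP5P, together with SDHA to SDHD, with the NDUFAF assembly factors left out. Of 42060 identifiers in the lung table or the hippocampus table, 48 were members. The lung table held 44 of them and all 44 passed the minimum of 7 reads in at least 3 lung libraries. The hippocampus table held 48, and 47 passed the minimum of 7 reads in at least 5 libraries, SDHC being the exception. A further 22 symbols that fit the rule, among them COX4I2, COX5B, COX6A1, COX6B1 and COX8A, were not analysed here.

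The pregnant animals received an intramuscular injection of saline, of the clinical drug or of Beta-Ac, and the lung labels give the fetuses as wild type, while the hippocampal labels give no genotype. The clinical drug was Celestone, a mixture of betamethasone acetate and betamethasone phosphate, at 0.25 mg/kg, and Beta-Ac was betamethasone acetate alone at 0.125 mg/kg, so the groups differ in dose as well as in formulation. Lung was taken from 5 groups of 3 fetuses, whose lung labels give gestational day 124 to 130. They were saline controls, fetuses delivered 4 h or 5 days after the clinical drug, and fetuses delivered 6 h or 5 days after Beta-Ac. Hippocampus was taken from 3 groups of 5 fetuses, namely controls at day 130 to 135, Beta-Ac at 5 days (day 132 to 133) and clinical drug at 5 days (day 131 to 136). Both tissues came from 9 of the fetuses, for which the labels of the tissues give different gestational days. In hippocampus the library titles and the treatment and dose fields name opposite drugs for the same libraries. Titles were followed, because they match the lung labels of the 6 treated fetuses that gave both tissues, and exchanging the labels exchanges the results of the 2 drugs below.

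Oxidative phosphorylation takes place in the inner mitochondrial membrane. Complex I (NADH dehydrogenase) and complex II (succinate dehydrogenase) pass electrons to ubiquinone, complex III passes them on to cytochrome c and complex IV to oxygen, and complex V (ATP synthase) uses the proton gradient that complexes I, III and IV build. The catalytic core of several complexes includes subunits encoded by mitochondrial DNA, which were not analysed here, whereas the members described below are made in the cytosol and imported. Neurons depend heavily on this pathway, and glucocorticoids are known regulators of energy metabolism.

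Total counts ran from 14073002 to 45033799 reads per library in lung and from 18280762 to 29301058 in hippocampus, and the members took 0.321% to 0.378% of the reads in lung and 0.169% to 0.295% in hippocampus. Levels are given in CPM, read counts scaled to a common library size after TMM normalization, and a gene was called when its fold change was at least 1.5 with p under 0.05 and a q value under 0.1 over all genes tested in edgeR's quasi-likelihood test. As tissue markers, the lung libraries had SFTPC, the surfactant protein of type 2 cells, at 2710 to 9650 CPM. The hippocampal libraries had SYT1, a synaptic vesicle protein, at 896 to 1740 CPM. All 13 neuronal markers passed the read minimum, although ZBTB20 was low at 0.371 to 2.21 CPM, with at most 51 reads. One hippocampal control, CTL212, had 1620 CPM summed over 9 choroid plexus markers, none of them at 0 in all libraries, against 48.3 to 96.8 CPM in the other 14 libraries. The tables used different sets of gene models, so levels are not compared between tissues, nor between genes. Since bulk tissue was measured, less RNA of a gene per cell cannot be told apart from fewer cells that carry it.

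In the hippocampus 5 days after the clinical drug, 10 of the 47 tested members were lower than in controls and 1 was higher. All genes tested were called lower in 5.35% and higher in 2.5%, or 7.86% in either direction, against 23.4% of the members. The members called lower were NDUFS1, NDUFS4, NDUFS6, NDUFS7 and NDUFA10 of complex I, UQCRC1 of complex III, COX5A and COX7A1 of complex IV, and ATP5F1C and ATP5ME of complex V. The member called higher was ATP5MC3 of complex V. Without the fold threshold, 20 members passed the test (21.9% of all genes), 17 of them lower (13.3%) and 3 higher (8.66%). The members' median log2 fold change was -0.185, against -0.019 over all genes, and 17 of 47 members were above 0, beside 48.1% of all genes. The median was -0.071 without CTL092 and -0.088 without CEL115, and between -0.217 and -0.134 when any other single library of the comparison was left out. With sequencing run as a term it was -0.073.

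**Figure D1:**
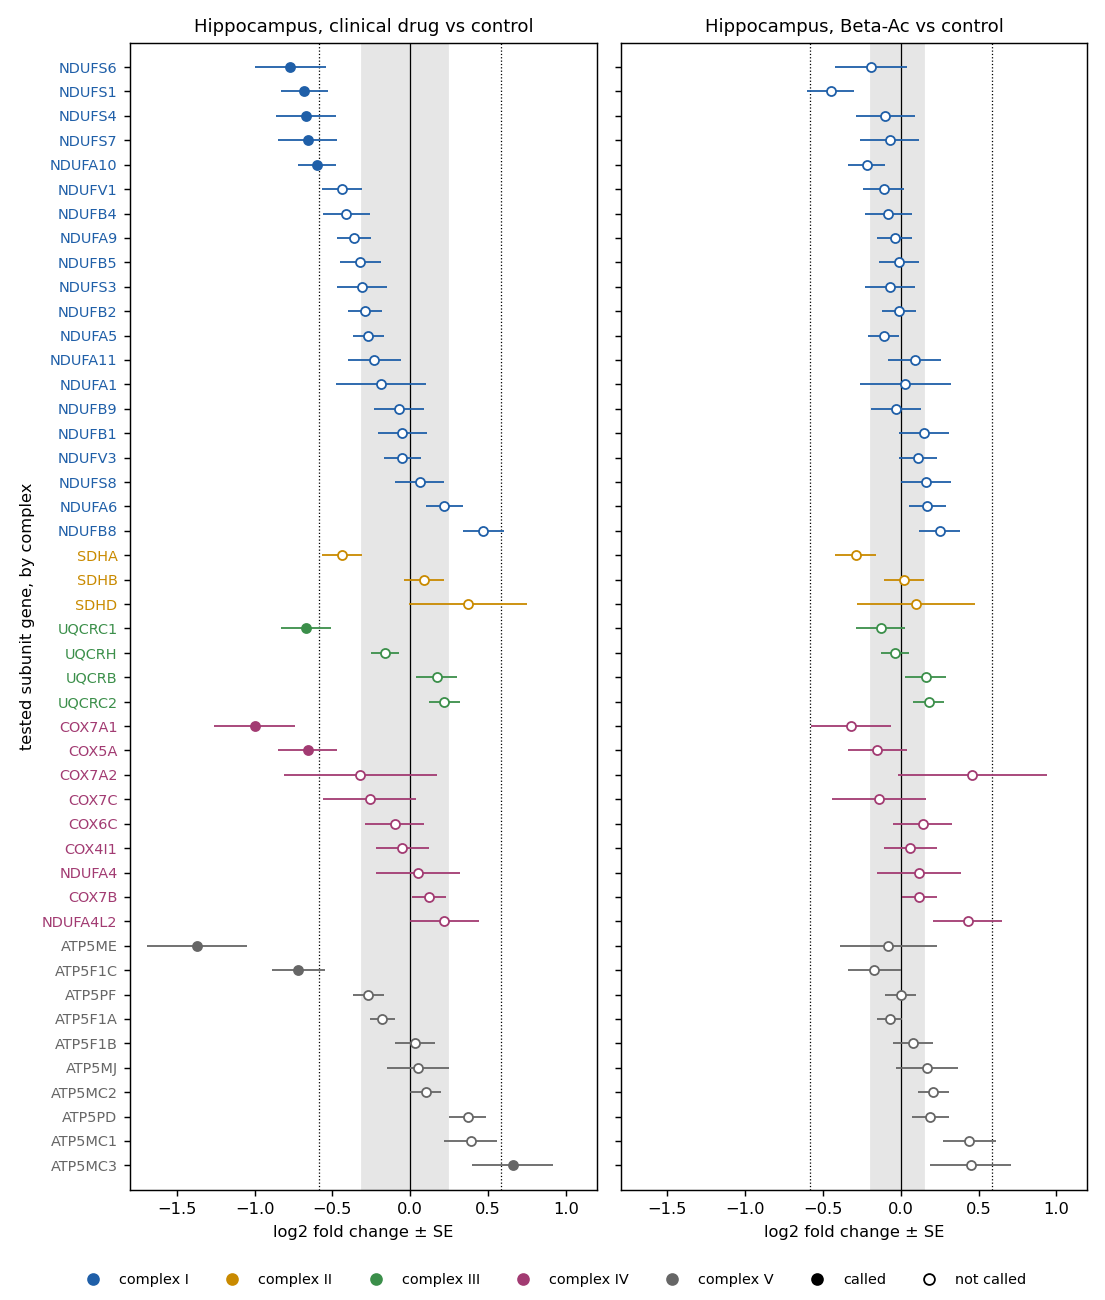
Log2 fold change with its standard error for subunit genes tested in hippocampus, clinical drug against control on the left and Beta-Ac against control on the right, in the same gene order and coloured by complex. Filled points passed the test and the 1.5-fold threshold (dotted lines), and the grey band holds the middle quartiles of all genes; the 11 filled points all lie on the left, 10 of them below 0.

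Libraries carry their titles and are listed in the order CTL092, CTL101, CTL113, CTL209 and CTL212 for controls, BAC128, BAC130, BAC136, BAC235 and BAC237 for Beta-Ac, and CEL115, CEL120, CEL126, CEL238 and CEL245 for the clinical drug. NDUFS1, which carries iron-sulfur clusters in the arm of complex I that oxidises NADH, was at 104, 89.9, 97.4, 100 and 120 CPM in controls, at 74.4, 65.6, 64.4, 60.6 and 54.9 CPM after the clinical drug, and at 103, 54.9, 60.8, 67.4 and 88.0 CPM after Beta-Ac. All clinical drug libraries lay below all controls, and the Beta-Ac libraries overlapped both groups. The log2 fold change was -0.68 ± 0.15 (SE, n = 5 per group) for the clinical drug (edgeR, Benjamini-Hochberg q = 0.0171) and -0.45 ± 0.15 for Beta-Ac (q = 0.274).

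NDUFS7, which holds the last iron-sulfur cluster before ubiquinone, was at 41.8, 37.5, 34.4, 42.1 and 44.1 CPM in controls and at 19.0, 26.6, 25.9, 27.5 and 27.9 CPM after the clinical drug, with CEL115 lowest. NDUFS4, an accessory subunit of the NADH-oxidising module, was at 44.2, 34.5, 40.3, 39.8 and 37.1 CPM against 24.1, 21.6, 23.2, 25.9 and 28.3 CPM. NDUFS6, a zinc-binding accessory subunit of the same module, was at 25.3, 23.2, 24.7, 24.9 and 25.4 CPM against 12.1, 12.5, 13.5, 17.7 and 16.5 CPM. In all 3 genes the groups did not overlap, and the log2 fold changes were -0.66 ± 0.19, -0.67 ± 0.19 and -0.77 ± 0.23 (edgeR q = 0.0397, 0.0363 and 0.0412).

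NDUFA10, an accessory subunit of the membrane arm, had the lowest q of the members (0.0140, edgeR). Its level was 102, 84.1, 93.8, 89.2 and 79.2 CPM in controls and 59.2, 55.6, 60.3, 62.1 and 59.1 CPM after the clinical drug. Its log2 fold change of -0.60 ± 0.12 lay close to the 1.5-fold threshold, and the call was lost in 8 of 23 alternative settings. Among these were run as a term and groups from the treatment field, which exchanges the drugs. Leaving out 1 library gave estimates from -0.64 to -0.55. NDUFV1, which binds NADH and its flavin cofactor, fell short of the threshold, with 105 ± 5.22 CPM (SD, n = 5) in controls and 77.6 ± 6.93 CPM after the clinical drug (log2 fold change -0.44 ± 0.13, edgeR q = 0.0385).

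Complex I, with the most tested members, had 5 of 21 called lower and none higher, and its median log2 fold change was -0.29. Complex II had 0 of 3 called, complex III 1 of 4 lower and complex IV 2 of 9 lower. Complex V had 2 of 10 lower and 1 higher, so the share called was not particular to complex I. Without the fold threshold, 10 of its members passed lower, NDUFV1, NDUFA9, NDUFB2, NDUFB4 and NDUFA5 being added, and NDUFB8 passed higher. NDUFB8, an accessory subunit of the membrane arm, was at 11.8, 13.6, 16.9, 16.4 and 13.5 CPM in controls and at 20.8, 18.5, 23.4, 18.6 and 18.6 CPM after the clinical drug, above every control (log2 fold change 0.47 ± 0.13, edgeR q = 0.0315). NDUFS8, a core subunit that carries iron-sulfur clusters towards ubiquinone, had a log2 fold change of 0.06 ± 0.16. The members of complex I therefore did not share 1 direction. Whether the complexes differed from each other was not tested.

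In complex II, SDHA, the flavoprotein that oxidises succinate, was at 91.6, 93.8, 95.2, 91.8 and 120 CPM in controls and at 75.9, 67.5, 73.2, 76.3 and 70.0 CPM after the clinical drug. Its log2 fold change of -0.44 ± 0.13 (edgeR q = 0.0350) did not reach the fold threshold, and the groups did not overlap. The high control was CTL212, the library with raised choroid plexus markers. SDHB, the iron-sulfur partner of SDHA, was at 13.3 ± 1.46 CPM in controls and 14.1 ± 1.15 CPM after the clinical drug (SD, n = 5), a log2 fold change of 0.09 ± 0.13.

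In complex III, the 2 core proteins UQCRC1 and UQCRC2, which sit side by side on the matrix face, had opposite signs. UQCRC1 was at 148, 143, 143, 141 and 133 CPM in controls and at 90.8, 83.6, 94.0, 91.6 and 85.4 CPM after the clinical drug, a narrow spread within each group and a log2 fold change of -0.67 ± 0.16 (edgeR q = 0.0195). UQCRC2 was at 48.0, 47.2, 52.3, 49.9 and 45.0 CPM against 56.5, 56.1, 60.2, 55.5 and 53.4 CPM, every treated library above every control, but its log2 fold change of 0.22 ± 0.10 did not pass the adjustment (edgeR q = 0.158).

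In complex IV, COX5A, an early-assembling nuclear subunit, was at 50.4, 45.1, 36.5, 40.5 and 41.5 CPM in controls and at 20.9, 25.1, 26.1, 29.0 and 34.2 CPM after the clinical drug. The groups did not overlap, and the log2 fold change was -0.66 ± 0.19 (edgeR q = 0.0363). COX4I1, its partner in early assembly, was at 22.4 ± 2.96 and 21.7 ± 3.75 CPM (SD, n = 5; log2 fold change -0.05 ± 0.17). COX7A1, the isoform typical of heart and skeletal muscle, was low throughout, at 4.66, 6.57, 6.82, 6.94 and 12 CPM in controls and 3.24, 3.45, 4.78, 2.58 and 4.44 CPM after the clinical drug. It was called at a log2 fold change of -1.0 ± 0.26 (edgeR q = 0.0268) with 1 pair of libraries overlapping, and the change was -0.76 without CTL212. COX7A2, the isoform found in most tissues, could not be resolved at 1.45 to 6.31 CPM in controls and 1.65 to 5.42 CPM after the clinical drug (log2 fold change -0.32 ± 0.49).

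NDUFA4, long counted with complex I and now placed in complex IV, was at 40.8 ± 8.07 CPM in controls and 42.2 ± 13.3 CPM after the clinical drug (SD, n = 5; log2 fold change 0.05 ± 0.27). Its hypoxia-inducible paralogue NDUFA4L2 was at 6.61 ± 1.30 and 7.73 ± 1.07 CPM (0.22 ± 0.22), and COX7B at 26.7 ± 2.93 and 29.1 ± 3.73 CPM (0.12 ± 0.11). None of these 3 passed the test.

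Complex V held the largest changes in both directions among the members. ATP5ME, subunit e of the membrane sector, was at 29.8, 22.0, 29.2, 30.9 and 22.6 CPM in controls, at 7.86, 10.2, 10.5, 11.8 and 11.6 CPM after the clinical drug, and at 27.5, 10.3, 11.2, 43.4 and 34.3 CPM after Beta-Ac. Its log2 fold change with the clinical drug was -1.37 ± 0.32 (edgeR q = 0.0187), from a mean of 26.9 to 10.4 CPM. ATP5F1C, the gamma subunit that forms the rotating shaft, was at 76.4, 65.5, 70.3, 67.2 and 67.4 CPM in controls and at 43.2, 37.7, 40.7, 45.2 and 43.7 CPM after the clinical drug (log2 fold change -0.72 ± 0.17, edgeR q = 0.0195). Neither gene overlapped between those groups.

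The alpha and beta subunits of the catalytic head moved less than ATP5F1C, and the head subunits ATP5F1D and ATP5F1E were not analysed here. ATP5F1A, the alpha subunit, was at 412 ± 13.7 CPM in controls and 363 ± 8.02 CPM after the clinical drug (SD, n = 5), all treated libraries below all controls, and the log2 fold change was -0.18 ± 0.08 (q = 0.130 in edgeR). ATP5F1B, the catalytic beta subunit, was at 21.4 ± 4.35 and 21.8 ± 1.07 CPM (log2 fold change 0.03 ± 0.13).

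ATP5MC3, 1 of 3 genes that encode the same mature c subunit of the rotor ring, was at 17.8, 23.4, 44.1, 40.2 and 23.5 CPM in controls and at 59.0, 47.7, 53.1, 45.5 and 30.5 CPM after the clinical drug. It was called higher (log2 fold change 0.66 ± 0.26, edgeR q = 0.0952), but the groups overlapped. The call was lost in 13 of 23 alternative settings, the exchange of the drug labels among them. Its companions ATP5MC1 and ATP5MC2 were at 0.39 ± 0.17 (q = 0.146) and 0.10 ± 0.10 (q = 0.527) on the log2 scale. ATP5PD, a stalk subunit, rose by a smaller amount, from 6.65 ± 0.526 to 8.56 ± 0.807 CPM (log2 fold change 0.37 ± 0.12, edgeR q = 0.0552).

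**Figure D2:**
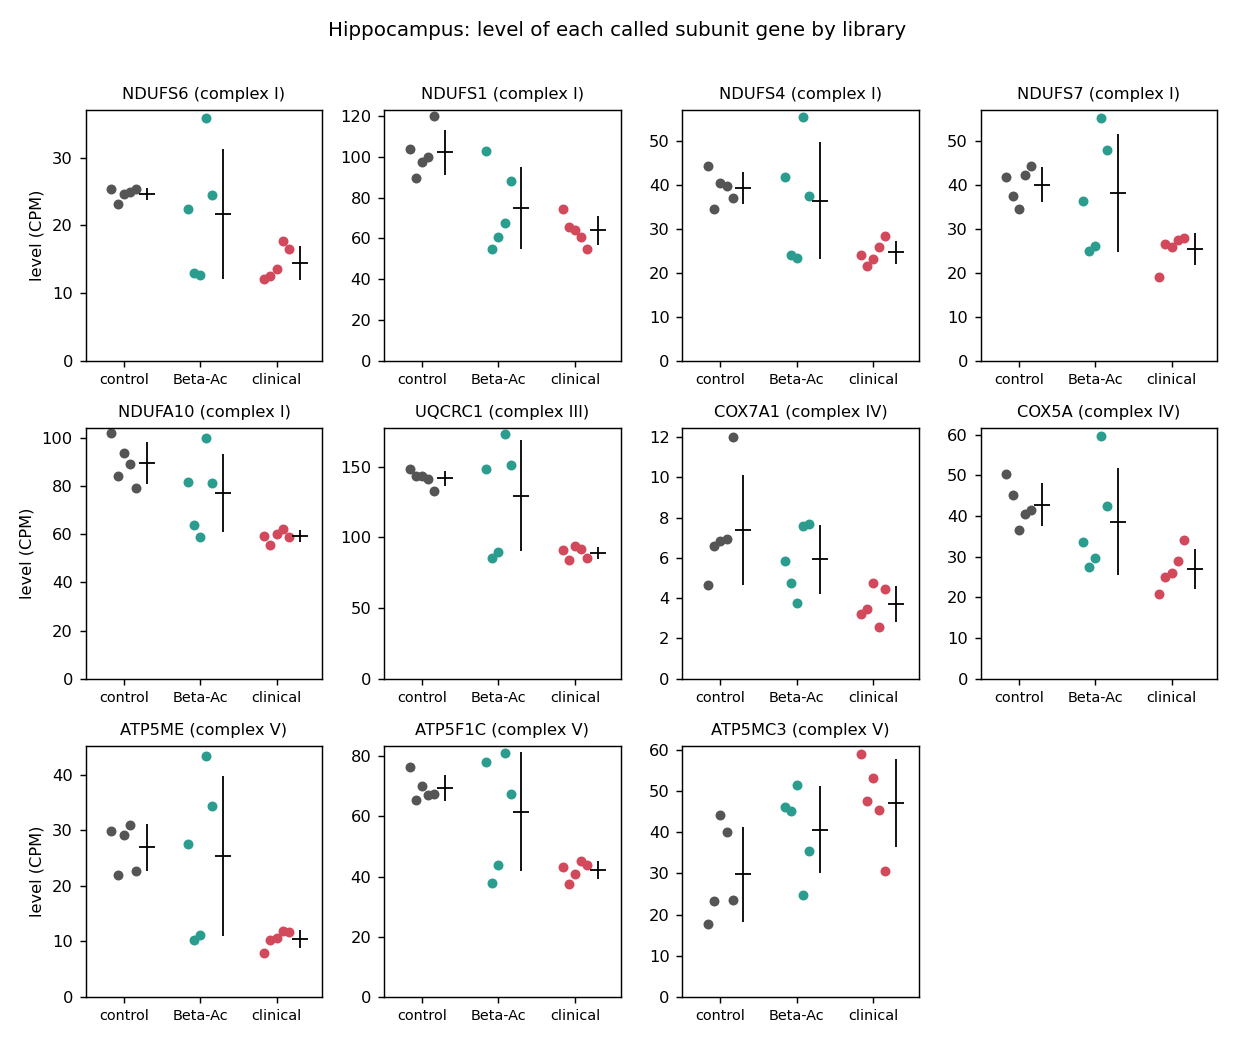
Level in CPM of the 11 called subunit genes in each hippocampal library, with 5 libraries per group and the group mean and SD as a bar to the right of the points. In ATP5ME the clinical drug libraries lie between 7.86 and 11.8 CPM and the controls between 22.0 and 30.9 CPM, while 2 Beta-Ac libraries lie near the clinical drug group and 3 within or above the controls.

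Every clinical drug library lay below every control in 13 of the 47 members, compared with 10% of all genes tested, and above in 2 members, compared with 5.07%. Summed over the members, controls had 2161 to 2276 CPM and clinical drug libraries 1742 to 1955 CPM, with no overlap. The fall was not uniform over libraries. The median of the members' log2 difference from the control mean was -0.45 in CEL115, -0.24 in CEL120 and -0.19 in CEL238, but -0.05 in CEL126 and 0.07 in CEL245.

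Runs and markers were set beside this comparison. Of the controls, 2 were sequenced in run0024 and 1 each in run0162, run1630 and run0164, whereas each drug group had 3 libraries in run1630 and 2 in run0164. Within run1630 the members' median log2 difference between clinical drug and control was -0.19, and within run0164 it was -0.11. With run as a term, 5 members were called, ATP5F1C, ATP5ME, COX7A1, NDUFS1 and NDUFS6, all lower, beside 5.51% of all genes. With run1630 and run0164 alone, where each run has 1 control, ATP5ME, COX7A1 and NDUFS1 were called, beside 3.47% of all genes. The run0164 control was CTL212, the highest control in COX7A1 (12 CPM) and NDUFS1 (120 CPM), though not in ATP5ME. Choroid plexus markers moved with the comparison, 6 of 9 being called lower, although outside CTL212 their summed level was 63.0 to 74.9 CPM in controls and 48.3 to 87.3 CPM after the clinical drug. Without CTL212 and BAC235, an alternative chosen after seeing the data, the same 10 members were called lower and none higher. That fit had no term for run. Of 8 astrocyte and radial glia markers 2 were called higher, their summed level being 2810 to 4110 CPM in controls and 3850 to 5320 CPM after the clinical drug. Of the 13 neuronal markers none was called, and their summed level was 4450 to 6890 CPM in controls and 6120 to 7110 CPM after the clinical drug. The part of neuronal or glial composition in the members' levels was not tested.

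After Beta-Ac the hippocampus had 0 called members of 47, and 0% of all 17390 genes were called. At an unadjusted p under 0.05, edgeR listed 3 members (NDUFS1 and SDHA lower, ATP5MC1 higher) beside 12.3% of all genes. With the fold and q thresholds, DESeq2 called 0 members. SDHA was at 80.7 CPM against 98.4 CPM in controls (log2 fold change -0.29 ± 0.13, edgeR q = 0.377) and ATP5MC1 at 7.33 against 5.38 CPM (0.44 ± 0.17, edgeR q = 0.328). The median log2 fold change of the members was 0.019 and the extremes were -0.45 and 0.46. ATP5F1A was at 393 CPM, NDUFV1 at 97.3 CPM, COX5A at 38.6 CPM, COX4I1 at 23.4 CPM, ATP5F1B at 22.6 CPM and SDHB at 13.5 CPM after Beta-Ac, each within 0.15 of control on the log2 scale.

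The Beta-Ac libraries differed widely among themselves. In UQCRC1 they were at 148, 85.7, 89.5, 173 and 151 CPM, where controls spanned 133 to 148 CPM, and in NDUFS6 at 22.4, 12.9, 12.7, 35.9 and 24.5 CPM, where controls spanned 23.2 to 25.4 CPM. ATP5F1C was at 78.0, 37.9, 43.8, 81.0 and 67.4 CPM. BAC130 and BAC136 thus lay near the clinical drug group in these genes, and the other 3 lay near or above the controls. Of the 10 members called lower with the clinical drug, BAC130 was below the lowest control in 9 and BAC136 in 10, against 2 in BAC128, 1 in BAC235 and 1 in BAC237. BAC235 was above the highest control in 7 of the 10. Over all 931 genes called lower with the clinical drug, BAC130 was below the lowest control in 66.5% and BAC136 in 74.8%, so these libraries were low in most genes of that set. BAC235 was below the lowest control in 45.8% of those 931 genes and above the highest in 12.8%, against 1 and 7 of the 10 members. BAC235 and BAC237 were sequenced in run0164 and the other 3 in run1630. The controls entered both the call and this count.

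**Figure D3:**
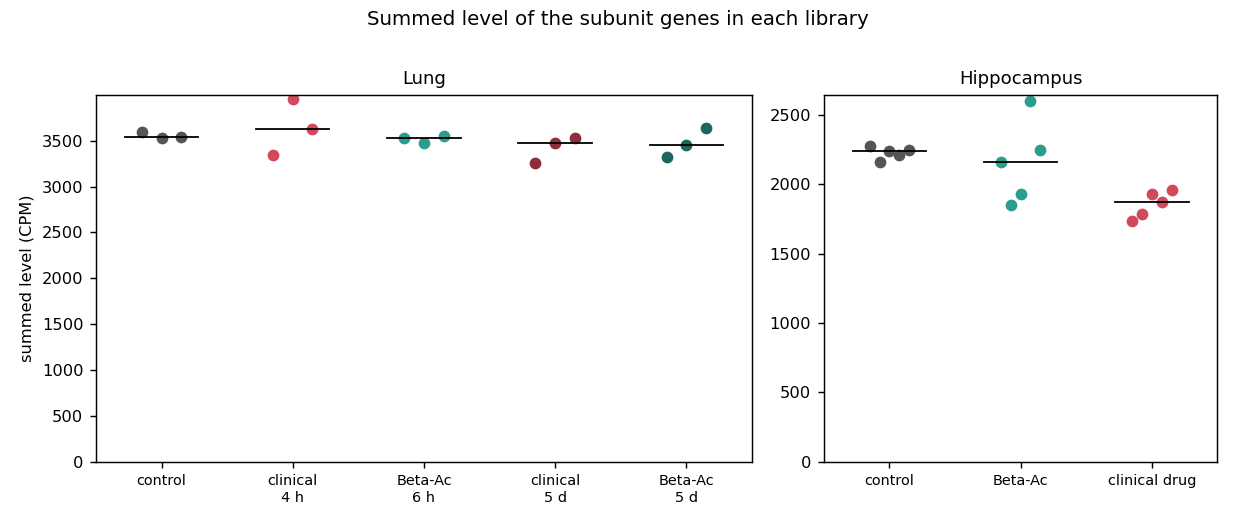
Summed level in CPM of the subunit genes in each library, lung on the left and hippocampus on the right, with the group median as a line. In hippocampus the clinical drug libraries lie between 1742 and 1955 CPM, below all controls, and the Beta-Ac libraries spread from 1847 to 2603 CPM, while all lung libraries lie between 3258 and 3956 CPM.

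Set directly against Beta-Ac, whose dose was lower, the clinical drug gave 0 called members in hippocampus, with 0% of all genes called. Of the 47 members 8 were above 0 on the log2 scale and 39 below, beside 49.6% of all genes above 0, and the median log2 difference was -0.159 against -0.003 over all genes. At an unadjusted p under 0.05, 14 members were lower and none higher in edgeR, beside 8.06% and 5.43% of all genes, and DESeq2 called ATP5ME alone, beside 1.07% of all genes. The 3 members with the lowest p were ATP5ME (log2 difference -1.28 ± 0.32, edgeR q = 0.209), UQCRC1 (-0.54 ± 0.16, q = 0.226) and ATP5F1C (-0.55 ± 0.17, q = 0.236). In each of the 47 members the ranges of the drug groups overlapped, whereas 2.76% of all genes had ranges apart. The difference between the drugs is therefore not established in edgeR for any single member, and it is not shown to be absent.

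In lung 4 h after the clinical drug, 0 of 44 members were called although 7.4% of all 17644 genes were. No member had an unadjusted p under 0.05 in edgeR, compared with 18.7% of all genes, and DESeq2 called 0. The median absolute log2 fold change was 0.08 over the members and 0.22 over all genes. The widest estimate, 0.79, belonged to NDUFA5, with 0 to 11 reads per library. The 2 largest of the others were in complex IV. NDUFA4 was at 70.7, 120 and 83.9 CPM in replicates 1 to 3 against 69.7, 70.2 and 65.0 CPM in the controls, all above the highest control (log2 fold change 0.42 ± 0.21, edgeR q = 0.206). Such a position was found in 2 of 44 members, beside 11.1% of all genes. NDUFA4L2 was at 17.5, 18.8 and 13.1 CPM against 23.8, 29.8 and 16.2 CPM (-0.49 ± 0.24, q = 0.198), and it was called lower at -0.70 when control replicate 3 was left out. The muscle isoform COX7A1 was at 25.3 ± 5.19 CPM against 20.6 ± 1.26 CPM (SD, n = 3; 0.29 ± 0.16, q = 0.242). Cell markers also moved at 4 h. Called higher were 2 of 7 skeletal and cardiac muscle and 3 of 7 type 2 cell markers, beside 3.46% of all genes. Of 6 T cell markers 3 were called lower, beside 3.94%. Endothelial, pericyte and macrophage lists had 1 call each, and ciliated and erythroid lists 0. The summed muscle markers were at 118 to 158 CPM against 85.5 to 110 CPM in controls. The part of cell composition was not tested.

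Core subunits of complexes I, II, III and V, and COX4I1 of complex IV, did not pass the test in lung at 4 h. NDUFS1 was at 42.5, 39.0 and 41.4 CPM against 37.9, 43.4 and 44.3 CPM in controls (log2 fold change -0.03 ± 0.10), NDUFV1 at 74.3 ± 5.91 against 72.6 ± 1.40 CPM, SDHA at 73.7 ± 3.47 against 71.6 ± 0.471 CPM, UQCRC1 at 131 ± 13.6 against 122 ± 6.39 CPM, COX4I1 at 183 ± 27.0 against 173 ± 12.3 CPM and ATP5F1A at 581 ± 36.3 against 620 ± 34.4 CPM (SD, n = 3). In each of these genes the ranges of the groups overlapped. Over all 5 lung groups the means ran from 37.8 to 43.4 CPM for NDUFS1, 71.6 to 79.1 CPM for SDHA, 56.7 to 60.9 CPM for SDHB, 119 to 131 CPM for UQCRC1, 173 to 188 CPM for COX4I1 and 581 to 624 CPM for ATP5F1A. A test of the difference between tissues was not made, since lung and hippocampus were counted on different gene models.

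**Figure D4:**
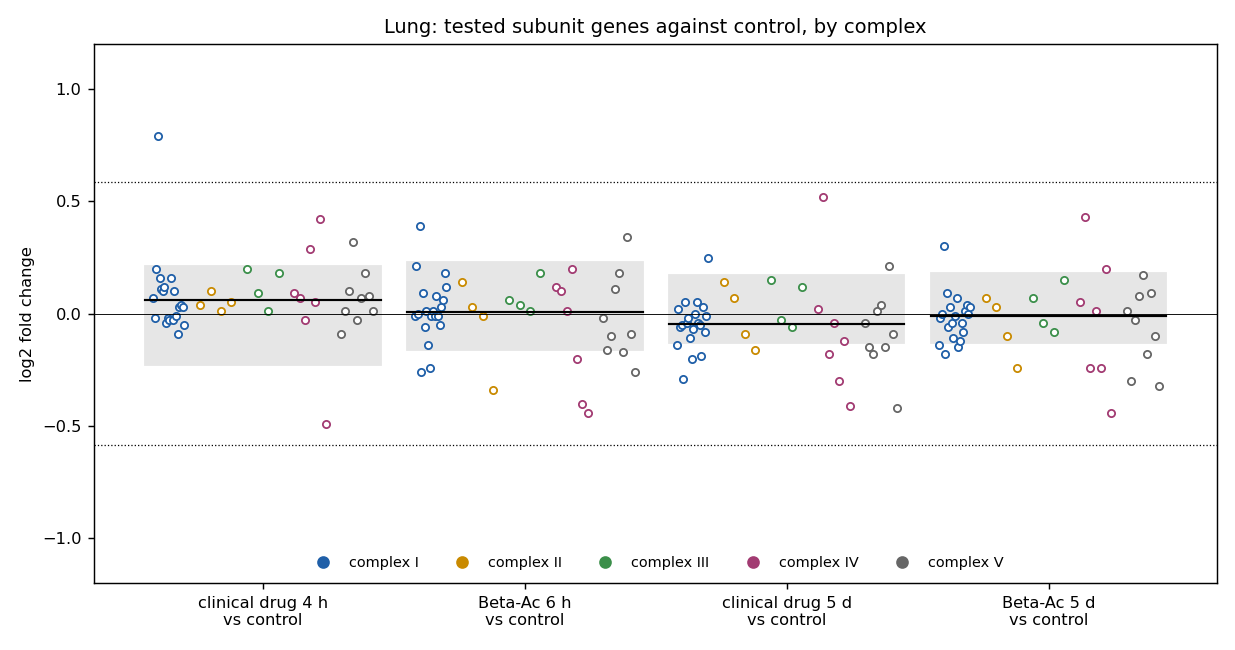
Log2 fold change of the 44 tested subunit genes in lung against control, for each drug and time, coloured by complex. Black lines are the members' medians (0.060, 0.007, -0.045 and -0.011 from left to right), grey boxes the middle quartiles of all genes and dotted lines the 1.5-fold threshold, which only NDUFA5 at 4 h crosses.

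In lung 6 h after Beta-Ac, 0 of 44 lung members were called, beside 0.442% of all genes, and DESeq2 called 0. At an unadjusted p under 0.05, 2 members were listed beside 11.5% of all genes. NDUFA6, an accessory subunit of complex I, was at 26.2, 27.0 and 29.2 CPM in replicates 1 to 3 against 34.2, 35.5 and 28.8 CPM in controls (log2 fold change -0.26 ± 0.11, edgeR q = 0.316). SDHD, which anchors complex II in the membrane, was at 57.4, 57.2 and 34.9 CPM against 69.1, 59.4 and 61.0 CPM (-0.34 ± 0.16, q = 0.331), so that replicate 3 alone was far below the controls. The members' median was 0.007.

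At 5 days after treatment the lung also had 0 called members, with the clinical drug (0% of all genes) and with Beta-Ac (0.00567%), and DESeq2 called 0 in both. At an unadjusted p under 0.05 there were 4 and 3 members, or 9.09% and 6.82%, beside 4.39% and 6.42% of all genes. These comparisons share the 3 controls. COX5A, which was lower in the hippocampus after the clinical drug, was at 14.4, 17.4 and 15.9 CPM in lung after the clinical drug and at 13.9, 13.0 and 17.8 CPM after Beta-Ac, above the controls at 11.6, 10.1 and 11.5 CPM. Its log2 fold changes of 0.52 ± 0.16 and 0.43 ± 0.16 were not past the adjustment (edgeR q = 0.931 and 0.693). ATP5PF, a stalk subunit of ATP synthase, was below the controls in both, at 45.5, 49.8 and 47.2 CPM and at 45.7, 55.1 and 52.1 CPM against 67.2, 62.9 and 61.0 CPM (-0.42 ± 0.15 and -0.32 ± 0.15, edgeR q = 0.931 and 0.734). Ranges apart from the controls were found in 15.9% and 9.09% of the members, beside 12.3% and 12.1% of all genes.

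The remaining members listed at 5 days were lower. COX7B and NDUFA6 after the clinical drug were at 65.9 and 26.9 CPM against 81.3 and 32.8 CPM (log2 fold changes -0.30 ± 0.12 and -0.29 ± 0.11, edgeR q = 0.931 for each). ATP5F1B after Beta-Ac was at 181, 200 and 206 CPM against 254, 242 and 229 CPM (-0.30 ± 0.09, edgeR q = 0.665). The clinical drug and Beta-Ac at 5 days did not separate: 0 members were called (0% of all genes), none had an unadjusted p under 0.05 in edgeR (3.15% of all genes), and DESeq2 called 0.

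At the early times, 4 h and 6 h, the drugs differed in 1 lung member, NDUFA4, compared with 6.74% of all genes. It was at 70.7, 120 and 83.9 CPM 4 h after the clinical drug and at 44.8, 56.0 and 53.9 CPM 6 h after Beta-Ac, with the controls in between at 65.0 to 70.2 CPM (log2 difference 0.83 ± 0.21, edgeR Storey q = 0.0271). The call was lost without clinical drug replicate 2, the library at 120 CPM (log2 difference 0.58) and when only these 2 groups entered the fit. Without the fold threshold 13.5% of all genes passed, and NDUFA6 was the other member (0.41 ± 0.11, edgeR q = 0.0352), at 31.2, 39.5 and 39.2 CPM against 26.2, 27.0 and 29.2 CPM. SDHD had a log2 difference of 0.39 ± 0.16 (edgeR q = 0.111). Dose, formulation and the 2 h between deliveries cannot be told apart here. Erythroid markers moved with the same comparison, 4 of 7 being called lower in the clinical drug group. Their summed level there was 218 to 271 CPM (median 260), against 163 to 866 CPM (median 167) after Beta-Ac, where 1 library was high. The part of blood in these values was not tested.

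**Figure D5:**
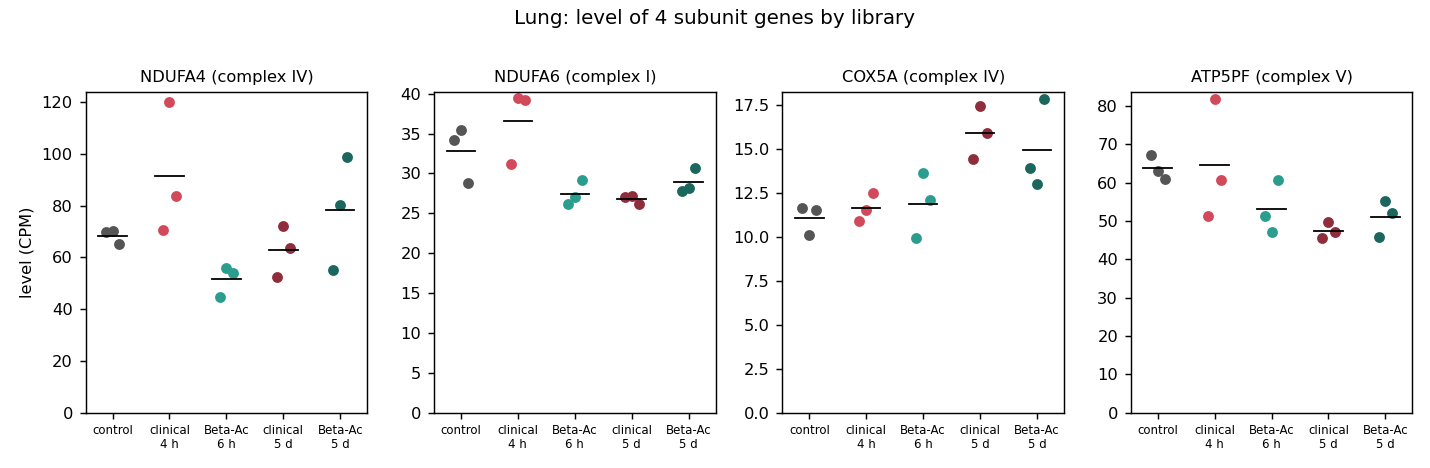
Level in CPM of NDUFA4, NDUFA6, COX5A and ATP5PF in each lung library, 3 per group, with the group mean as a line. NDUFA4 lies at 70.7 to 120 CPM at 4 h after the clinical drug and at 44.8 to 56.0 CPM at 6 h after Beta-Ac, and COX5A is at 13.0 to 17.8 CPM in the 5-day groups against 10.1 to 11.6 CPM in controls.

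Between 4 h and 5 days after the clinical drug, 0 lung members were called with the fold threshold, beside 10.4% of all genes, and DESeq2 called 0. At an unadjusted p under 0.05 there were 7 members beside 22.9% of all genes. Without the threshold 6 of 44 passed (13.6%, against 18.7% of all genes). NDUFA6 (0.44 ± 0.11, edgeR q = 0.0149), ATP5PF (0.44 ± 0.15, q = 0.050), COX7B (0.35 ± 0.12, q = 0.0527), ATP5F1C (0.28 ± 0.10, q = 0.0594) and NDUFA4 (0.54 ± 0.21, q = 0.0810) were higher at 4 h, and COX5A was lower (-0.45 ± 0.16, q = 0.0584), all as log2 differences of 4 h minus 5 days. Between 6 h and 5 days after Beta-Ac, 0 members were called (0.261% of all genes; DESeq2 also called 0), and 2 had an unadjusted p under 0.05 in edgeR beside 7.91% of all genes, NDUFA4 among them at -0.60 ± 0.21 (q = 0.391).

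The group means of NDUFA4 moved in opposite directions over time with the 2 drugs. They went from 91.6 to 62.9 CPM with the clinical drug and from 51.6 to 78.2 CPM with Beta-Ac. Neither change was itself called with the fold threshold. The difference of these changes was 1.14 ± 0.29 on the log2 scale (edgeR interaction, q = 0.0736 over all genes), and 2.8% of all genes passed this test. It was the only one of the 44 members to pass, and this test was added after the values had been seen. Within the 5-day Beta-Ac group the gene was at 55.3, 80.4 and 98.8 CPM, a range that spans the controls.

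Other mitochondrial and energy genes were counted in the hippocampus after the clinical drug by the same rule, which called 5.35% of all genes lower and 2.5% higher. Of 39 assembly factors, 2 were called lower and 0 higher, NDUFAF6, a complex I assembly factor, having the lowest p (log2 fold change -0.60 ± 0.17, edgeR q = 0.0315), with a list median of 0.02. Of 45 mitochondrial ribosomal proteins 2 were lower, led by MRPL3 (22.1 against 35.2 CPM, -0.67 ± 0.14, edgeR q = 0.0150). Of 19 genes of the citrate cycle and pyruvate dehydrogenase 2 were higher and 1 was lower, with SUCLG2, a succinyl-CoA ligase subunit, at 0.68 ± 0.16 (edgeR q = 0.0190) and IDH3G, an isocitrate dehydrogenase subunit, at -0.68 ± 0.19 (q = 0.0299). Of 15 glycolytic genes 1 was higher and 2 were lower, with LDHB at 0.65 ± 0.16 (edgeR q = 0.0201) and ENO2, the neuronal enolase, at 394 against 615 CPM (-0.64 ± 0.13, q = 0.0140). Without the fold threshold 7 of the 19 citrate cycle genes passed lower and 4 higher, and 4 of the 15 glycolytic genes lower and 1 higher, beside 13.3% and 8.66% of all genes. Summed glycolytic genes, like the summed members, did not overlap, at 2500 to 3000 CPM in controls and 2280 to 2470 CPM after the clinical drug. The medians of that sum were 2920 and 2450 CPM. The fall of ENO2 alone, from 615 to 394 CPM, is part of it, and the ranges of ENO2 overlapped. The citrate cycle sums overlapped, at 1720 to 1860 and 1610 to 1760 CPM. Of 64 cytosolic ribosomal proteins 2 were higher and 1 lower, their median being 0.22, with RPL5 at 0.59 ± 0.11 (edgeR q = 0.0138) and RPLP2 at -1.13 ± 0.35 (q = 0.0466). After Beta-Ac these 5 lists had 0 called genes, as did the whole table.

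Regulators of mitochondrial biogenesis gave 0 calls of 17 in hippocampus after the clinical drug. TFAM, which maintains mitochondrial DNA, had a log2 fold change of -0.32 ± 0.13 (edgeR q = 0.116), GABPA -0.36 ± 0.16 (q = 0.145), ESRRA 0.28 ± 0.13 (q = 0.158), PPARGC1A -0.13 ± 0.17 (q = 0.627) and NRF1 -0.04 ± 0.09 (q = 0.823). After Beta-Ac none of the 17 was called either, GABPA having the lowest q of these 5 at 0.286 (-0.45 ± 0.16). In lung, the coactivator PPARGC1B was lower at 4 h (2.08 against 3.83 CPM, -0.85 ± 0.29, edgeR q = 0.0787), although the groups overlapped. It was the only one of 16 regulators called, where 3.94% of all genes were called lower. Pyruvate carboxylase (PC), which feeds the citrate cycle, was higher at 4 h (44.7 against 19.8 CPM, 1.18 ± 0.15, edgeR q = 0.000196), and hexokinase HK2 was higher at 4 h after the clinical drug (0.66 ± 0.24, q = 0.0897) and at 6 h after Beta-Ac (1.23 ± 0.24, q = 0.0523). At 4 h and 6 h against control these were the called genes of the pathway lists in lung, and at 5 days there were 0. Set against Beta-Ac at 6 h and against 5 days, the clinical drug at 4 h had PPARGC1B lower (-1.22 ± 0.29 and -1.12 ± 0.29, edgeR q = 0.0227 and 0.0173) and PC higher (0.76 ± 0.14 and 1.06 ± 0.14, edgeR q = 0.00805 and 0.000307), and RPS25, a ribosomal protein, was higher at 4 h than at 5 days (0.63 ± 0.17, edgeR q = 0.0203). PPARGC1A, TFAM, ESRRA and GABPA were not called in any lung comparison, PPARGC1A reaching -0.45 ± 0.20 at 5 days after Beta-Ac (edgeR q = 0.727).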

How the data were processed

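The 15 lung and 15 hippocampal libraries were made from total RNA. The authors deposited whole-read counts per Ensembl rhesus gene. The submitters' processing notes name Bowtie 1.2.1.1 and featureCounts 1.5.1 for lung and Bowtie2 and featureCounts for hippocampus, while the study's methods give Bowtie 2 and build MMUL1.0. How strand and multiply mapped reads were handled is not given in the sources used here, so reads of near-identical copies and pseudogenes, common for these genes, may be split between rows. Hippocampal RNA was poly(A) selected and read as 75 bp pairs. Symbols came from Ensembl and matched 15769 lung and 17621 hippocampal identifiers.

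Counts were tested in R 4.3.3 with edgeR 4.0.16 (TMM, glmQLFit, glmQLFTest), in 1 fit per tissue, over the 17644 lung and 17390 hippocampal genes that reached 7 reads in 3 or more lung or 5 or more hippocampal libraries. Standard errors are the log2 fold change divided by the square root of F. Fold changes used a prior count of 0.125. Storey q values, the adjustment named in the study's methods, were used in lung. Benjamini-Hochberg values were used in hippocampus, as in the caption of the study's figure of hippocampal genes. The script was tested on simulated data. Members, lists and named genes (those called, the lowest p in each direction and a fixed set of subunits and isoforms) were chosen with earlier results of these data known. Titles carry 1 animal number per library, so the spread is between fetuses. Alternatives were normalization, filters, adjustment, DESeq2 1.42.0, groups fitted, sequencing run, label field and leaving out libraries. DESeq2 calls used the same fold, p and q thresholds. Where DESeq2 is said to have called 0, this counts members, and the share of all genes beside it is from edgeR. Results of 1 member are not reported here.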

Additional observations from a re-analysis of the deposited data

Results flagged for a closer look

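In 66 groups of 5 hippocampal libraries, 3 values stood far from the rest of their group, where about 5% of groups would be expected to do so. NDUFS7 was at 19 CPM in CEL115, a clinical drug library, and the other 4 were at 25.9 to 27.9 CPM. SDHA was at 120 CPM in control CTL212, the library with raised choroid plexus markers, and the other controls were at 91.6 to 95.2 CPM. COX7A2 was at 10.9 CPM in the Beta-Ac library BAC235 and at 2.96 to 4.94 CPM in the others of that group.

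The change of lung NDUFA4 from the early time to 5 days differed between the drugs by 1.14 ± 0.29 on the log2 scale, being lower at 5 days with the clinical drug and higher with Beta-Ac (edgeR interaction, q = 0.0736). The early deliveries were at 4 h and 6 h, and the doses differed. This test was added after the values had been seen, and 1 of 44 members passed it, beside 2.8% of all genes. Neither change over time was itself called with the fold threshold. The early difference between the drugs was not called without clinical drug replicate 2, the library at 120 CPM.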

How the results depend on the processing

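No called member changed sign under any alternative. In hippocampus, clinical drug against control, 11 called members became 20 without the fold threshold, 5 with run as a term, 3 with run1630 and run0164 alone, and 0 (median 0.019) with groups from the treatment field. Other normalizations, other filters, Storey adjustment, the compared groups alone and DESeq2 gave 10 or 11 calls, and only animals with a lung library gave 9. That field gave Beta-Ac 11 calls (median -0.185) and the clinical drug minus Beta-Ac a median of 0.159, by its construction. DESeq2 called 1 member between the drugs. Leaving out 1 animal gave 8 to 11 calls and medians of -0.217 to -0.071 for the clinical drug, fewest without CEL115, 0 to 1 for Beta-Ac (NDUFS1 at -0.59 without BAC128, medians -0.058 to 0.067) and 0 between the drugs (-0.248 to -0.087). In lung, scaling by total counts gave medians of -0.058 at 4 h and -0.029 at 6 h. Calls between 4 h and 6 h were 2 without the fold threshold and 0 with only those groups fitted, and between 4 h and 5 days 6 without the threshold. Leaving out 1 lung animal gave 0 to 1 calls at 4 h against control (NDUFA4L2, without control replicate 3; medians -0.026 to 0.114, lowest without clinical drug replicate 2), against 6 h (none without the same library) and against 5 days (NDUFA4 at 0.68, without clinical drug replicate 1). The cause was not tested. No paired analysis was possible because groups within a tissue share no fetus and no labelled replicate number. Depth limits the low genes: NDUFA5 in lung and COX7A2 in hippocampus had wide errors.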

Other observations

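Some members had reads in 1 table that the other all but lacked. SDHC had 957 to 2694 reads per lung library and 0 to 9 per hippocampal library, SDHD had 723 to 2524 and 4 to 17, and NDUFA5 had 0 to 11 in lung and 537 to 1099 in hippocampus. ATP5ME, COX7A2, COX7C and NDUFS3 had a row in the hippocampus table and not in the lung table used here. Of the identifiers, 20572 were in both tables, out of 30246 in lung and 32386 in hippocampus. ATP5ME, the member with the largest fall in the hippocampus, was thus not measured in lung here.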
